A study of Mus musculus with 21 samples.

Results

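The comparison described here sets the fibrotic phase of a kidney injury against its acute phase. Its late side holds 9 libraries, 3 each from days 7, 14 and 28 after folic acid, and its early side holds 9 libraries, 3 each from days 1, 2 and 3. These 18 of the 21 libraries of the series were chosen by their labelled day alone, and each day entered with 1 mean, so that a late mean over 3 days was set against an early mean over 3 days. The 3 libraries of day 0 are outside the contrast, and whether their mice received an injection is not stated. Small RNA was sequenced from whole kidney of male BALB/c mice aged 12 weeks. Every mouse of both phases carried the same treatment, folic acid at 250 mg/kg in 0.3 M sodium bicarbonate. No group without folic acid stands beside the late or the early days, so time after injury, age at collection and day of collection cannot be told apart. Whether the libraries of 1 day stem from different mice is also not stated, so the p-values speak only to the spread among libraries, which may be technical.

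Folic acid at a high dose damages the renal tubules, and the injury is followed by repair and by interstitial fibrosis. A mature microRNA (miRNA) is a short RNA that guides an Argonaute protein to messenger RNAs, mostly through its seed, the stretch from base 2 to base 8. Each precursor hairpin can give a mature miRNA from its 5′ arm (-5p) and another from its 3′ arm (-3p), and usually only 1 of the arms is abundant. Several miRNAs mark cell types. The miR-199 and miR-214 miRNAs are known from mesenchymal cells such as fibroblasts, miR-451 and miR-144 from red blood cells, miR-142 and miR-223 from leukocytes, and miR-192 and miR-194 from kidney tubules. In RNA from whole kidney, fewer cells of a type and less RNA per cell cannot be told apart.

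Mature sequences of miRNAs on which the results turn are printed first, with the seed in capitals, from RefSeq (GRCm38.p6), 5′ to 3′. The miRNAs of the miR-181 family and the pair miR-146a and miR-146b share a seed within each group, and their -5p members were higher on the late days.
miR-181a-5p: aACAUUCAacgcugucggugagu
miR-181b-5p: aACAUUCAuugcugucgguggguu
miR-181c-5p: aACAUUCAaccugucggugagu
miR-181d-5p: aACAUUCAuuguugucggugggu
miR-146a-5p: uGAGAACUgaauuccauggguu
miR-146b-5p: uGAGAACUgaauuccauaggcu
miR-199a-3p: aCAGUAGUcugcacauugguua
miR-199a-5p: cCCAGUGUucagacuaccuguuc
The next miRNAs were lower on the late days. The arms of miR-21 come from the same hairpin and have different seeds, while miR-132-3p and miR-212-3p share a seed, as do miR-221-3p and miR-222-3p. miR-17-5p and miR-20a-5p also share a seed, from which the seed of miR-18a-5p, of the same primary transcript, differs.
miR-21-5p: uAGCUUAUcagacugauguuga
miR-21-3p: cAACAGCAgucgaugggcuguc
miR-132-3p: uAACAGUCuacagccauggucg
miR-212-3p: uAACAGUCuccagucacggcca
miR-221-3p: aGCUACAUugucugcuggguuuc
miR-222-3p: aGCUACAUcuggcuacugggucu
miR-17-5p: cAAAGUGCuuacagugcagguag
miR-20a-5p: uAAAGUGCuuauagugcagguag
miR-18a-5p: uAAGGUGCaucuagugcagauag
miR-92a-3p: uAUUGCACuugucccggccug
miR-451: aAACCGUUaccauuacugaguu
miR-144-3p: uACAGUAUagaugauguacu

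Late libraries held 3115403 to 6415634 reads assigned to miRNAs (median 4639911) and early libraries 2875675 to 7110546 (median 4286091). A late library detected 604 to 671 miRNAs and an early library 587 to 683. Levels are given as CPM, the deposited abundances relative to all miRNA reads of a library, after TMM scaling, which corrects for a few abundant miRNAs that shift a whole library. Where no read was seen, the limit of 3 reads stands at 0.468 to 0.963 CPM in the late libraries and 0.422 to 1.04 CPM in the early ones, for counting error only. The 10 most abundant miRNAs took 72.1% ± 0.68 of the reads in late libraries and 71.4% ± 0.65 in early libraries (SD, n = 9 each). On the first component of a principal component analysis of the 18 libraries, which held 30.8% of the variance, the 3 libraries of day 28 lay between -0.14 and 0.50, between the libraries of days 7 and 14, all at 2.60 or above, and those of days 1 and 2, all at -4.24 or below. The day 3 libraries lay at 0.95 to 3.17 on that component, on the side of days 7 and 14. On the second component, with 25.3% of the variance, the day 28 libraries were highest, at 5.67 to 8.95.

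**Figure D1:**
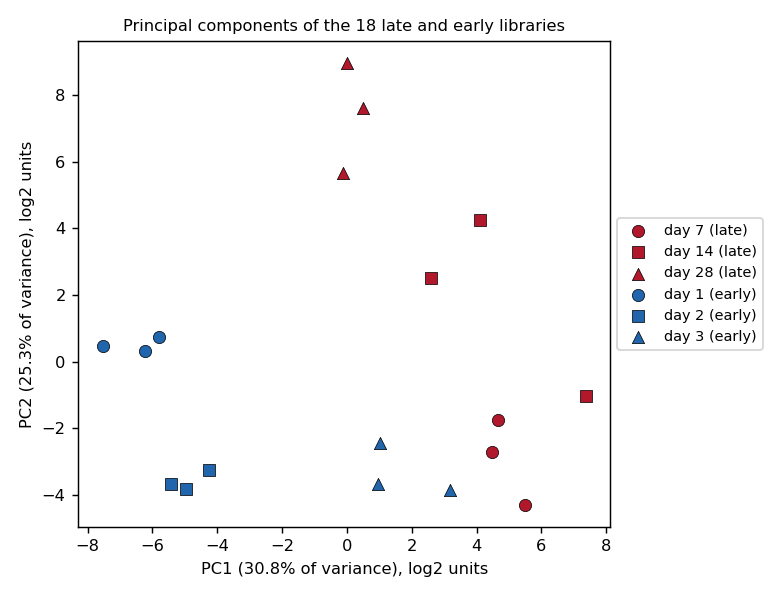
The 18 libraries on the first (30.8%) and second (25.3%) principal components of log2(CPM + 1). Points are libraries, coloured by phase (blue early, red late), and marker shapes tell the days of a phase apart. Day 3 libraries (0.95 to 3.17 on the first component) lie nearer to days 7 and 14 than to days 1 and 2, and day 28 stands apart on the second component.

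Of the 1125 miRNAs in the table, 694 were under a filter on low counts and were not tested, among them 250 with no read. Of those tested, 151 differed between the late and the early mean at an adjusted p under 0.05, which is 35.0% of them. The late mean was higher for 71 (16.5%) and lower for 80 (18.6%). The changes were mostly small. The median log2 fold change, late minus early on log2(CPM + 1), was 0.41 over the 71 and -0.47 over the 80, and it was past 1 on the log2 scale for 5 and 8 of them. In 8 miRNAs all 9 late libraries lay above all 9 early libraries (1.86% of those tested), and in 6 all lay below (1.39%). The split between directions depended on scaling. With library totals in place of TMM, 49 were higher and 118 lower, so that 29.3% of the calls were higher in place of 47.0%, and the median of all tested miRNAs was -0.11 in place of -0.02. Treating the 6 days as the units, 3 late against 3 early day values, limma called 0 miRNAs, with 82 at an unadjusted p under 0.05. Across libraries edgeR's quasi-likelihood test called 153, and DESeq2 called 78 higher and 77 lower.

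Each phase mean covered days that differed from each other. An F test found a difference among days 7, 14 and 28 for 28.3% of the tested miRNAs and among days 1, 2 and 3 for 13.9%. Of the 71 higher miRNAs, 25 differed among the late days and 17 among the early days, and 37 in neither test. Of the 80 lower miRNAs, 26 differed among the late days and 14 among the early days, and 43 in neither. The day means of the phases did not overlap for 35 of the 71 and for 46 of the 80. These miRNAs were called for a phase difference, which itself favours separate day means, and the share over all tested miRNAs is not given. Day 28 was the late day farthest from the early mean for 32 of the 71 and for 43 of the 80. Over all tested miRNAs the median absolute distance from the early mean was 0.243, 0.235 and 0.295 on the log2 scale on days 7, 14 and 28.

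**Figure D2:**
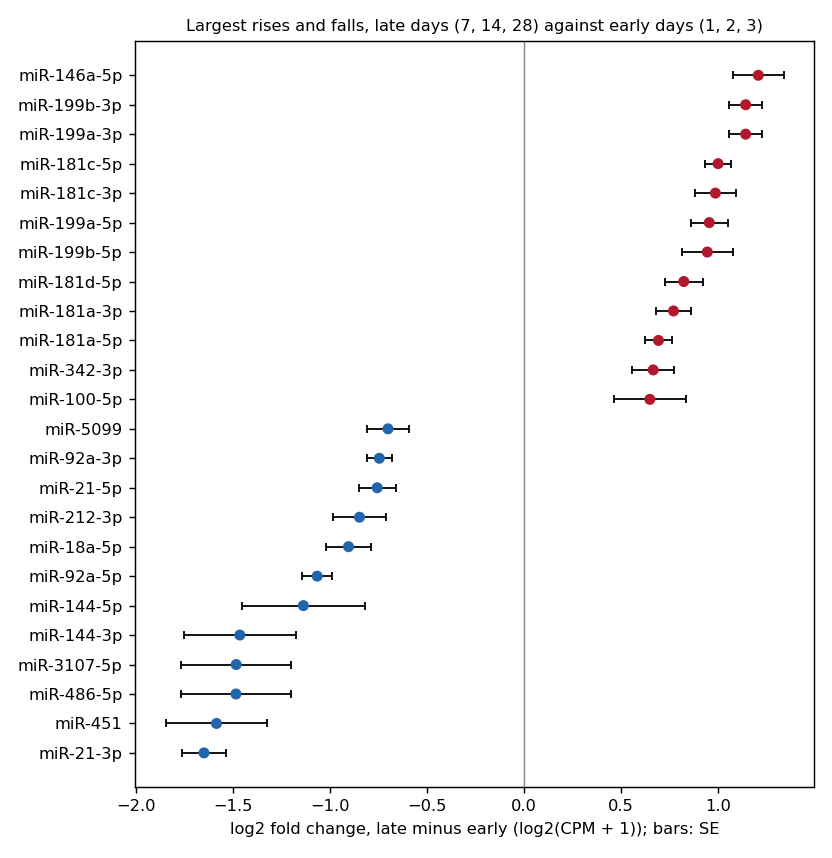
Log2 fold change, late minus early, with its standard error, for the 12 largest called rises and the 12 largest called falls among miRNAs that average 10 CPM or more across the 18 libraries. Values run from 1.21 for miR-146a-5p to -1.65 for miR-21-3p.

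Mesenchymal miRNAs were among the largest rises. Of 6 tested rows, 5 were higher on the late days and 0 lower, with a median log2 fold change of 0.95, beside 16.5% higher and a median of -0.02 among all tested miRNAs. The miR-199b-3p row is a copy of the miR-199a-3p row in every library, and with the pair counted once 4 of 5 were higher, with a median of 0.94. miR-199a-3p had 3753, 4841 and 7748 CPM (lowest, median and highest) in the late libraries, against 1686, 2193 and 3051 CPM in the early ones. No late library overlapped an early one, and the log2 fold change was 1.14 ± 0.09 (SE; adjusted p = 1.1e-09). Its day means were 1967, 2051 and 2909 CPM on days 1, 2 and 3 and 5001, 5922 and 4341 CPM on days 7, 14 and 28, so the highest early day and the lowest late day were still apart. The reads of miR-199a-3p and miR-199b-3p cannot be separated. In GRCm38.p6 miR-199a-3p lies at chr1:162217883-162217904 on the plus strand inside the noncoding gene Dnm3os, and a second copy lies at chr9:21496498-21496519 on the minus strand.

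The other arm, miR-199a-5p, had 335, 481 and 684 CPM in the late libraries and 175, 241 and 375.9 CPM in the early ones. Its log2 fold change was 0.95 ± 0.10 (adjusted p = 1.29e-07), with some overlap of libraries. miR-199b-5p was scarcer, at 35.3 ± 9.94 CPM in late and 17.4 ± 3.40 CPM in early libraries (SD, n = 9 each), with a log2 fold change of 0.94. miR-214, whose hairpin also lies inside Dnm3os, gave different results for its arms. miR-214-5p was higher by 0.64 on the log2 scale (adjusted p = 5.99e-05; 0.35 and adjusted p = 0.0290 without day 1), at 35.9 ± 9.05 CPM in late and 23.3 ± 8.22 CPM in early libraries. Its call ended without days 1 and 2 (0.12, adjusted p = 0.644). The more abundant miR-214-3p did not pass the test (log2 fold change 0.28, adjusted p = 0.0873), and its value moved with the days included, from -0.18 without day 1 to 0.71 without day 3. It had day means of 70.3, 137 and 246 CPM on days 1, 2 and 3 and 227, 193.5 and 102 CPM on days 7, 14 and 28, so that day 3 was its highest day and it lay in the early phase. Without day 3 or without day 28 it passed the test, at 0.71 (adjusted p = 0.000628) and 0.61 (adjusted p = 0.00278). With miR-199b-3p left out as a copy of miR-199a-3p, the summed level of the mesenchymal list ran from 4218 to 8770 CPM in late and from 1979 to 3628 CPM in early libraries.

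All 7 tested members of the miR-181 family were higher on the late days, with a median of 0.77, beside 16.5% of all tested miRNAs. The family is known for setting signalling thresholds in lymphocytes and is also found in many other tissues. miR-181a-5p, its most abundant member, had 14435, 22253 and 28269 CPM in the late libraries and 11949, 12662 and 16675 CPM in the early ones. Its log2 fold change was 0.69 ± 0.07 (adjusted p = 9.13e-08), and its day means on days 7, 14 and 28 were 15920, 23197 and 27139 CPM, so that day 28 was the highest. miR-181c-5p had 1090, 1623 and 1945 CPM in the late libraries and 681, 773 and 892 CPM in the early ones, with no overlap and a log2 fold change of 1.00 ± 0.07 (adjusted p = 7.42e-10). Its hairpin and that of miR-181d lie close together, at chr8:84178924-84178945 and chr8:84178759-84178781 for the -5p arms (minus strand, within Nanos3).

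miR-181d-5p (log2 fold change 0.82), miR-181c-3p (0.99) and miR-181a-3p (0.77) also had no late library overlapping an early one. miR-181b-5p rose less, by 0.36 (adjusted p = 0.0004), at 1161 ± 154.2 CPM in late and 904 ± 122.5 CPM in early libraries. Its call ended without days 1 and 2 (0.18, adjusted p = 0.226). miR-181b-3p was near the detection limit, at 3.64 ± 0.98 CPM in late and 2.25 ± 1.01 CPM in early libraries (log2 fold change 0.55, adjusted p = 0.0175), and lost its call without day 1 (adjusted p = 0.198) or day 28 (adjusted p = 0.0556). Family members differed in which late day was highest. miR-181a-5p and miR-181c-5p had their highest mean on day 28 and differed among the late days (adjusted p of the F test 0.000207 and 0.00104). miR-181d-5p had day means of 277, 311 and 236 CPM on days 7, 14 and 28, with no difference passing that test (adjusted p = 0.18). The 4 family members that share the seed ACAUUCA summed to 25113 ± 5592 CPM in late and 15225 ± 1628 CPM in early libraries.

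**Figure D3:**
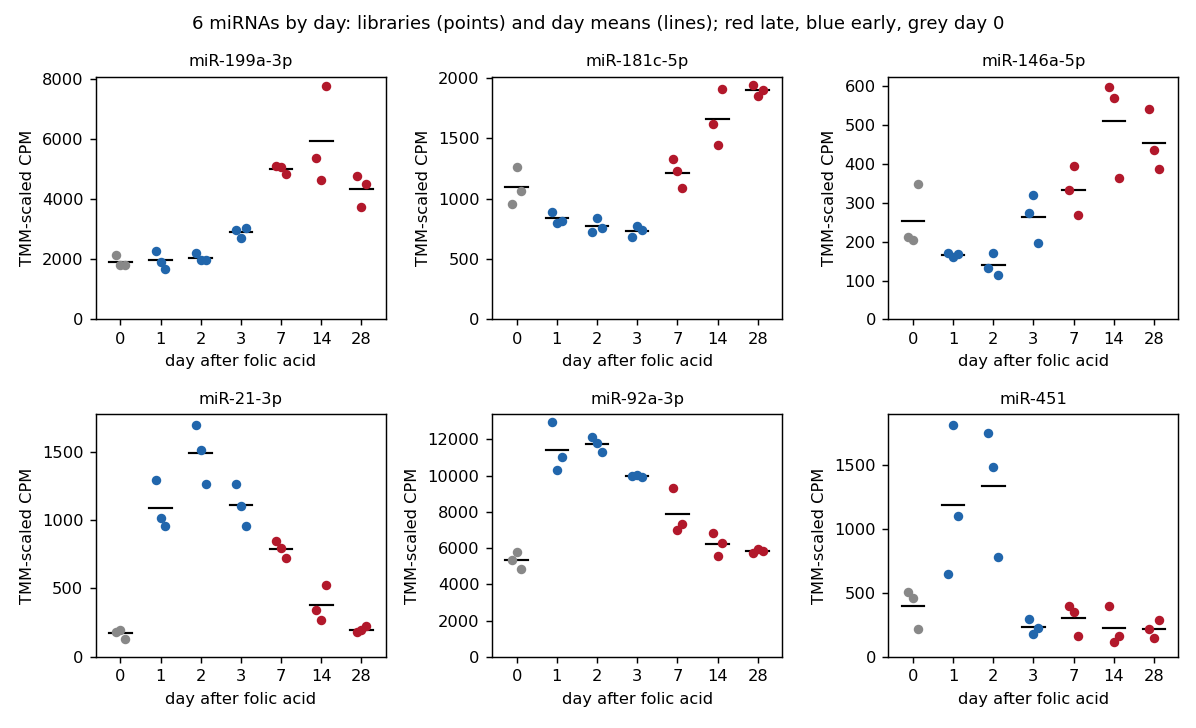
TMM-scaled CPM of 6 miRNAs by day after folic acid, linear axes from 0; points are libraries (3 per day), lines are day means, red late, blue early, grey day 0. Against days 1, 2 and 3, the day means of miR-199a-3p, miR-181c-5p and miR-146a-5p are higher on days 7, 14 and 28. Those of miR-21-3p and miR-92a-3p are lower, though still above their day 0 means of 170 and 5329 CPM. miR-451 is high on days 1 and 2 (1188 and 1336 CPM) and at 231 CPM on day 3.

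miR-146a-5p, a feedback inhibitor of NF-kB signalling in immune cells, had the largest rise among miRNAs with at least 10 CPM on average. It had 269, 395 and 600 CPM in the late libraries and 116, 172 and 321 CPM in the early ones. The libraries overlapped, since day 3 was higher than the other early days, and the log2 fold change was 1.21 ± 0.13 (adjusted p = 3.34e-07). Its day means were 167, 139 and 264 CPM on days 1, 2 and 3 and 332, 512 and 455 CPM on days 7, 14 and 28. miR-146b-5p, which has the same seed and differs in a few bases of its 3′ end, was higher by 0.58 ± 0.13 (adjusted p = 0.00107), at 564 ± 218 CPM in late and 391 ± 215.3 CPM in early libraries. Day means were 237, 291 and 644 CPM on days 1, 2 and 3 and 661, 708 and 322.8 CPM on days 7, 14 and 28. The call ended without day 1 (0.30, adjusted p = 0.129) or day 14 (0.37, adjusted p = 0.0664), and the value was 1.00 without day 3 and 0.94 without day 28.

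Other miRNAs of leukocytes did not move one way. Of 11 tested members of the leukocyte list, 7 were higher and 2 lower, beside 16.5% and 18.6% of all tested miRNAs. The list had a median of 0.41, and its summed level ran from 2454 to 3647 CPM in late and from 1500 to 3219 CPM in early libraries. miR-342-3p, which lies within the gene Evl, had 56.5, 94.4 and 144.5 CPM in late and 39.0, 58.6 and 95.9 CPM in early libraries (log2 fold change 0.67, adjusted p = 5.99e-05; 0.44 without day 1, 0.17 and adjusted p = 0.543 without days 1 and 2). miR-142-5p, from a hairpin active across blood cells, was at 1589 ± 271 CPM in late and 1074 ± 311 CPM in early libraries (0.59, adjusted p = 4.07e-05; 0.17 and adjusted p = 0.466 without days 1 and 2). Its other arm miR-142-3p barely passed (0.30, adjusted p = 0.0457) and lost its call with library totals (0.19, adjusted p = 0.172), without any of 15 single libraries, which are all 21 but replicate 3 of days 1, 7 and 14, replicate 1 of day 2 and replicate 2 of days 3 and 28 (adjusted p 0.05004 to 0.105), and without day 1, 2, 7 or 14 (adjusted p = 0.623, 0.349, 0.509 and 0.257), while it was at 0.61 without day 3 and 0.57 without day 28. miR-150-5p, known from mature lymphocytes, was at 324 ± 70.3 CPM in late and 243 ± 49.9 CPM in early libraries (0.41, adjusted p = 0.00634) and lost its call without day 2 (0.25, adjusted p = 0.152) or day 28 (0.29, adjusted p = 0.0941).

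Scarcer leukocyte miRNAs included miR-511, which lies inside Mrc1, the gene of the macrophage mannose receptor. miR-511-3p was at 8.87 ± 5.33 CPM in late and 2.97 ± 2.44 CPM in early libraries, with a log2 fold change of 1.36 ± 0.18 (adjusted p = 5.4e-06), and day 7 was its highest day at 13.9 CPM. Without days 1 and 2 it was not called (0.41, adjusted p = 0.278). miR-511-5p (0.79, adjusted p = 0.00954) lost its call without day 7 (0.53, adjusted p = 0.148). The lower members were miR-155-5p and miR-223-3p. miR-155-5p, known from activated macrophages and lymphocytes, had 62.4, 68.4 and 75.6 CPM in late and 83.2, 103 and 113 CPM in early libraries, with no overlap and a log2 fold change of -0.52 ± 0.08 (adjusted p = 1.54e-05). Within each phase its days were close, at 97.7, 103 and 98.5 CPM on days 1, 2 and 3 and 68.6, 69.8 and 67.9 CPM on days 7, 14 and 28. miR-223-3p, a miRNA of neutrophils and other myeloid cells, was at 153 ± 72.9 CPM in late and 183.4 ± 47.2 CPM in early libraries (-0.35, adjusted p = 0.0365), and 10 single libraries each ended the call when left out (adjusted p 0.0584 to 0.0843), namely replicates 1 and 3 of day 1, 1 and 2 of day 2, 1 and 2 of day 3, 3 of day 7, 2 of day 14, and 1 and 2 of day 28. The same held without day 2, 3, 14 or 28 (adjusted p = 0.092, 0.237, 0.114 and 0.884), while the value was -0.72 without day 7.

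miR-21, which many injured tissues make in larger amounts, showed the largest fall among miRNAs with at least 10 CPM on average. miR-21-3p had 180, 345 and 844 CPM in the late libraries and 954, 1261 and 1694 CPM in the early ones, with no overlap and a log2 fold change of -1.65 ± 0.12 (adjusted p = 7.42e-10). Its day means were 1087, 1489 and 1108 CPM on days 1, 2 and 3 and 787, 377.4 and 199.4 CPM on days 7, 14 and 28. The abundant arm miR-21-5p fell less, by 0.76 ± 0.09 on the log2 scale (adjusted p = 2.8e-06). It had 20896, 41298 and 88993 CPM in late libraries and 56222, 65877 and 84456 CPM in early ones, so the highest late library lay above every early library. Its day means were 61417, 77113 and 74622 CPM on days 1, 2 and 3 and 74848, 44201 and 22716 CPM on days 7, 14 and 28, and the late days differed from each other (adjusted p of the F test 2.28e-06). Day 7 was thus at the level of days 2 and 3, and the log2 fold change was -1.17 without day 7 and -0.32 without day 28 (adjusted p = 0.0327). The hairpin lies in Vmp1 on the minus strand, with miR-21-5p at chr11:86584120-86584141 and miR-21-3p at chr11:86584082-86584103.

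The NF-kB list holds miR-21, miR-146, miR-155, miR-147, miR-9 and the pair of miR-132 and miR-212. Of 12 tested members, 2 were higher and 6 lower, beside 16.5% and 18.6% of all tested miRNAs. The list had a median of -0.23. Without day 28 it had 3 higher and 4 lower, with a median of 0.0049. miR-132 and miR-212 come from neighbouring hairpins induced by activity and stress signals, and their -3p arms share a seed. miR-212-3p was at 27.7 ± 14.9 CPM in late and 44.3 ± 5.55 CPM in early libraries (-0.85, adjusted p = 5.66e-05), with -1.27 without day 7 and -0.41 without day 28. miR-132-3p was at 222.3 ± 102 CPM in late and 270 ± 26.5 CPM in early libraries (-0.43, adjusted p = 0.00609). By day it averaged 252, 270 and 287 CPM on days 1, 2 and 3 and 307, 250 and 110 CPM on days 7, 14 and 28. Its fall rested on day 28, since without that day the log2 fold change was 0.01 (adjusted p = 0.968), and without day 7 it was -0.74.

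The miR-17 to miR-92a cluster is a single primary transcript (Mir17hg, chromosome 14) whose miRNAs are associated with cell proliferation. Of 10 tested members, 7 were lower and 0 higher on the late days, beside 18.6% and 16.5% of all tested miRNAs. The members had a median of -0.47. Summed, they ran from 6363 to 10878 CPM in late and from 10940 to 13881 CPM in early libraries. Most of this sum was miR-92a-3p, on average 6650 of 7576 CPM in late and 11054 of 12147 CPM in early libraries. miR-92a-3p, the most abundant, had 5557, 6282 and 9295 CPM in late and 9952, 11008 and 12971 CPM in early libraries, with no overlap (-0.74 ± 0.06, adjusted p = 1.21e-08). A second copy of its gene lies on chromosome X, outside this transcript, and the reads of the copies cannot be told apart. Its -5p arm, miR-92a-5p, was at 22.6 ± 6.77 CPM in late and 47.0 ± 6.23 CPM in early libraries, a log2 fold change of -1.06 (adjusted p = 1.05e-09).

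Further members of the cluster were lower as well. miR-18a-5p was at 26.6 ± 14.3 CPM in late and 46.4 ± 12.9 CPM in early libraries (-0.90, adjusted p = 2.8e-06; -0.50 without day 28), and miR-18a-3p at 4.71 ± 2.76 CPM in late and 9.86 ± 2.20 CPM in early libraries (-1.03). miR-17-5p (-0.45, adjusted p = 0.000338), miR-20a-5p (-0.36, adjusted p = 0.000641) and miR-19a-3p (-0.48, adjusted p = 0.00409) were near or above the early level on day 7. Their day 7 means were 218.5, 175 and 89.3 CPM, beside early means of 221.9, 173 and 76.3 CPM. Without day 28 the log2 fold changes were -0.27, -0.23 and -0.07, and the call of miR-19a-3p ended (adjusted p = 0.775). Without day 7 they were -0.55 for miR-20a-5p and -0.83 for miR-19a-3p. In the related miR-106b to miR-25 cluster 3 of 6 tested members were lower (1 without day 2), beside 18.6% of all tested miRNAs. In the miR-106a to miR-363 cluster 0 of 3 were called (1 higher without day 7).

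miR-221-3p and miR-222-3p, neighbours on chromosome X known for acting on cell cycle inhibitors, were lower on the late days, while their -5p arms were not called. miR-221-3p had 951, 1081 and 1233 CPM in late and 1324, 1467 and 1856 CPM in early libraries, with no overlap (-0.49 ± 0.05, adjusted p = 6.04e-07). miR-222-3p was at 961 ± 130 CPM in late and 1233 ± 150 CPM in early libraries (-0.36, adjusted p = 0.00212). The other miRNAs with every late library below every early one were miR-345-3p (65.9 ± 8.03 CPM in late and 91.96 ± 8.83 CPM in early libraries) and miR-877-3p (2.26 ± 0.37 and 4.05 ± 0.91 CPM in late and early libraries), both singled out for that after their values were seen. miR-5099, named by its size of change, was lower by 0.70 on the log2 scale, at 164 ± 31.1 CPM in late and 269 ± 62.0 CPM in early libraries.

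The erythroid miRNAs were lower as a group, and this rested on days 1 and 2. All 5 tested were lower, with a median of -1.46, beside 18.6% of all tested miRNAs. miR-451 had 117, 218.7 and 397 CPM in the late libraries and 175, 781 and 1810 CPM in the early ones (-1.58 ± 0.26, adjusted p = 6.54e-05). By day it averaged 1188, 1336 and 231 CPM on days 1, 2 and 3 and 303, 224 and 217 CPM on days 7, 14 and 28, so that day 3 was already at the level of the late days. Without day 3 the log2 fold change was -2.38, and with days 1 and 2 both left out it was 0.00 (adjusted p = 0.999). miR-486-5p was at 1281 ± 646 CPM in late and 4104 ± 2648 CPM in early libraries (-1.48, adjusted p = 0.000348; -2.26 without day 3, 0.06 without days 1 and 2). The row of miR-3107-5p differed from it by at most 0.466% in any library and cannot be separated from it.

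miR-144-3p, from the same transcript as miR-451 on chromosome 11, was at 20.7 ± 12.0 CPM in late and 67.9 ± 47.9 CPM in early libraries (-1.46, adjusted p = 0.000436; -0.94 without day 2, -2.24 without day 3). miR-144-5p (-1.14, adjusted p = 0.00746) lost its call without day 1 (-0.81, adjusted p = 0.0967) or day 2 (-0.74, adjusted p = 0.151) and was at -1.86 without day 3. miR-486-3p (-0.84, adjusted p = 0.00212) lost its call without day 2 (-0.46, adjusted p = 0.149) and was at -1.33 without day 3. With days 1 and 2 left out, 0 of the 5 were called. The summed erythroid level ran from 686 to 2773 CPM in late and from 1153 to 9804 CPM in early libraries. How much the blood content of the tissue contributed to other differences was not tested.

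**Figure D4:**
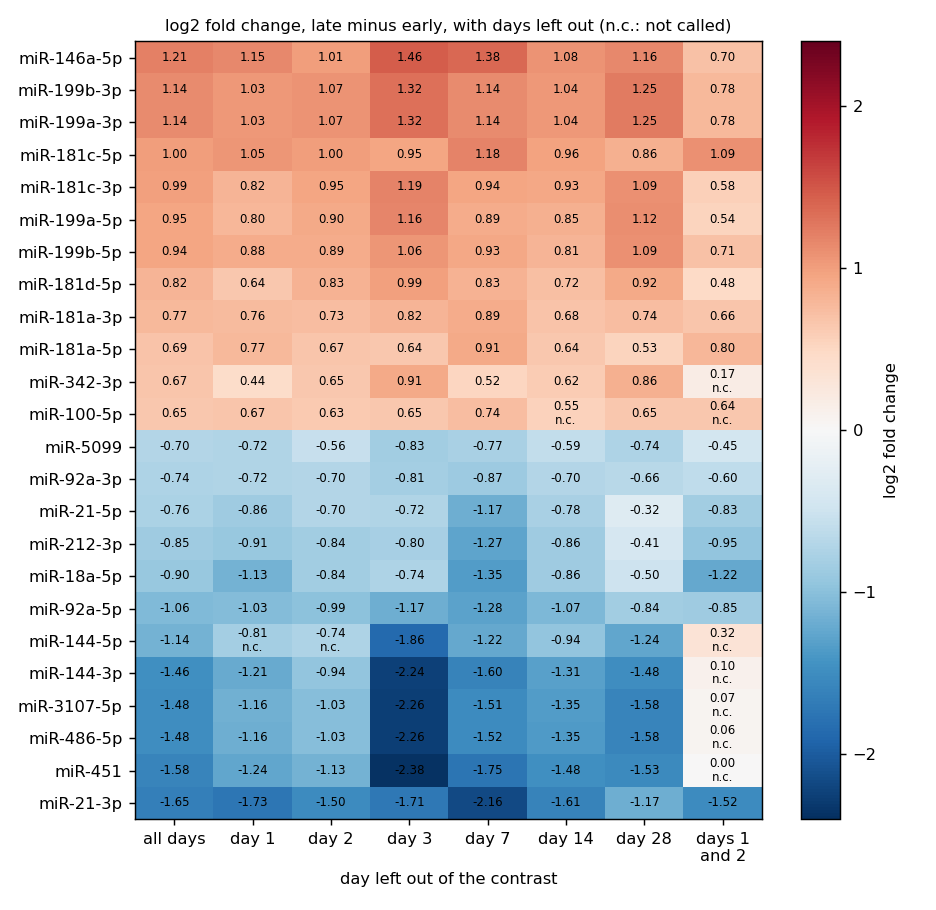
Log2 fold change, late minus early, of the 24 miRNAs with the largest called changes when a day or a pair of days is left out (columns); n.c. marks values not called. The erythroid miRNAs are near 0 in the column without days 1 and 2, while miR-21-3p (-1.52), miR-181c-5p (1.09) and miR-199a-3p (0.78) keep their direction there.

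With days 1 and 2 left out, so that the late days were set against day 3 alone, 72 miRNAs were called, 28 higher and 44 lower, and 64 of the 72 were among the 151. Of 72 miRNAs that were called with all days and followed without each day, 32 lost their call without days 1 and 2. The early side then held only the libraries of day 3, so a lost call alone does not show a smaller change. Some log2 fold changes kept their size, as for miR-100-5p (0.64, and 0.65 with all days) and miR-222-3p (-0.35 and -0.36). Others shrank, as for miR-451 (0.00 and -1.58) and miR-142-5p (0.17 and 0.59). Without days 1 and 2, 4 of the 6 mesenchymal rows, the identical pair included, were higher and 1 lower, and 5 of 7 in the miR-181 family were higher. In the leukocyte list 1 was higher and 3 were lower of 11. All list counts without days 1 and 2 are to be read beside the 28 higher and 44 lower among all tested miRNAs in this setting. With all days these were 71 and 80, so the shares of 16.5% and 18.6% do not apply here. miR-146a-5p stayed called (0.70, adjusted p = 0.0274), miR-146b-5p did not (-0.25, adjusted p = 0.412), and miR-214-3p was lower (-0.60, adjusted p = 0.0335). This setting was chosen after the values by day had been seen.

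Kidney-enriched miRNAs split by family. Of 16 tested, 7 were higher and 1 lower, beside 16.5% and 18.6% of all tested miRNAs. The list had a median of 0.08, and of -0.01 with library totals. Without day 28 the counts were 6 and 4, and without days 1 and 2 they were 2 and 1. With all days the lower one was the tubular miR-194-2-3p (-0.50), while miR-194-2-5p was not called (-0.04). Of the tested arms of miR-10 and miR-196, which lie in the HOX clusters, miR-10b-3p (0.18, adjusted p = 0.199) and miR-196b-3p (-0.02, adjusted p = 0.934) were not called, and the other 6 were higher. miR-10a-5p, the most abundant of them, had 137295, 172530 and 210781 CPM in late and 100520, 133019 and 169615 CPM in early libraries (0.40 ± 0.10, adjusted p = 0.00384). miR-10a-3p was higher by 0.40 with no overlap of libraries, at 158 ± 13.6 CPM in late and 119 ± 8.90 CPM in early libraries. miR-10b-5p was at 134948 ± 25142 CPM in late and 105499 ± 21327 CPM in early libraries (0.35, adjusted p = 0.00466), and its call ended without day 2 (0.28, adjusted p = 0.0539) or day 28 (0.24, adjusted p = 0.0954). miR-196b-5p (0.33, adjusted p = 0.000214) was higher as well, but not called without days 1 and 2 (0.17, adjusted p = 0.244). miR-196a-5p (0.20, adjusted p = 0.00715) lost its call without day 2 (adjusted p = 0.0784) or day 14 (adjusted p = 0.0787) and with library totals (0.094, adjusted p = 0.296).

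miR-204-5p, known from renal epithelium, was at 457 ± 63.0 CPM in late and 337.5 ± 65.5 CPM in early libraries (0.45, adjusted p = 1.54e-05; 0.28 without day 1, 0.15 and adjusted p = 0.33 without days 1 and 2). miR-192-5p, a miRNA of the proximal tubule, did not pass the test. It had 54726, 71619 and 106604 CPM in the late libraries and 63211, 76217 and 98568 CPM in the early ones (-0.05, adjusted p = 0.604). By day it averaged 89449, 69970 and 73186 CPM on days 1, 2 and 3 and 64676, 67344 and 94957 CPM on days 7, 14 and 28. Without day 28 it was lower (-0.23, adjusted p = 0.0366), and without day 1, 7 or 14 its sign turned (0.05, 0.05 and 0.02, none called).

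In the miR-30 family, abundant in tubules and podocytes, 3 of 10 were higher and 0 lower, beside 16.5% and 18.6% of all tested miRNAs. The family had a median of 0.16, beside -0.02 among all tested miRNAs. The count depended on the days, with 8 higher without day 7 (median 0.31), 6 without day 1, 1 without day 2, 2 without day 3 and 0 without day 28 (median -0.0080). miR-30e-5p was at 20816 ± 5427 CPM in late and 15210 ± 3001 CPM in early libraries (0.43, adjusted p = 0.00192), and lost its call without day 2 (adjusted p = 0.051) or day 28 (adjusted p = 0.093). miR-30e-3p (0.36, adjusted p = 0.00122) was at 0.60 without day 7 and lost its call without day 28 (0.14, adjusted p = 0.272). miR-30a-5p did not pass (0.15, adjusted p = 0.116), and passed without day 1 (0.25, adjusted p = 0.0208) or day 7 (0.29, adjusted p = 0.0102), while it was at -0.02 without day 28. In the miR-200 family, known for holding epithelial identity, 2 were higher and 2 lower of 8, beside 16.5% and 18.6% of all tested miRNAs. The number lower was 0 without day 1 or day 2. Summed, the family ran from 8910 to 11171 CPM in late and from 8800 to 11471 CPM in early libraries. The lower ones were miR-429-3p and miR-200a-5p (-0.18). The higher ones were the neighbours miR-200c-3p, at 209 ± 20.1 CPM in late and 149 ± 17.7 CPM in early libraries with no overlap (0.48, adjusted p = 0.000331), and miR-141-3p, at 1123 ± 180 CPM in late and 786 ± 132.4 CPM in early libraries (0.52, adjusted p = 0.000739).

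In the let-7 family, which is associated with differentiated cells, 7 of 18 were lower and 0 higher, with a median of -0.14, beside 18.6% lower and a median of -0.02 among all tested miRNAs. The rows of let-7a-3p and let-7c-3p differed by at most 0.132% in any library, and with these counted once 6 of 17 were lower. With library totals 14 of the 18 rows were lower (median -0.25), while 4 were lower without day 2 and 1 without days 1 and 2. let-7g-5p was at 4884 ± 316 CPM in late and 5630 ± 458 CPM in early libraries (-0.20, adjusted p = 0.00373), and let-7d-3p at 573 ± 42.9 CPM in late and 720 ± 64.9 CPM in early libraries (-0.33, adjusted p = 0.000686). In the miR-29 family, which is known to act on collagen messenger RNAs, 1 of 6 was lower and 0 higher, with a median of -0.16. Without day 3, without day 28 or with library totals 3 were lower, and without day 1 the count was 1 higher and 0 lower. The member lower with all days, miR-29b-3p, was at 149 ± 15.2 CPM in late and 182.9 ± 34.3 CPM in early libraries (-0.28, adjusted p = 0.0114), and lost its call without day 1 (adjusted p = 0.21) or day 14 (adjusted p = 0.0636).

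The miR-15 and miR-16 family, which shares the seed AGCAGCA in its -5p arms, went both ways. Of 9 tested members, 4 were higher and 3 lower, beside 16.5% and 18.6% of all tested miRNAs. The number lower was 1 without day 3 or day 14 and 0 without day 28. miR-497-5p and miR-195-5p, from neighbouring hairpins, were at 494.3 ± 73.5 and 492 ± 62.5 CPM in late libraries and at 333 ± 33.8 and 363.4 ± 38.4 CPM in early libraries (0.56 and 0.43, adjusted p = 3.34e-06 and 7.48e-05). miR-15b-5p was at 99.4 ± 37.8 CPM in late and 118 ± 33.6 CPM in early libraries (-0.28, adjusted p = 0.01). Its call ended without day 3 (-0.05, adjusted p = 0.709), day 14 (-0.23, adjusted p = 0.0636) or day 28 (-0.03, adjusted p = 0.846), and it was at -0.50 without day 1 and -0.57 without day 7. Among miR-99, miR-100 and miR-125 miRNAs, 5 were higher and 2 lower of 9, with 3 and 2 with library totals or without day 14, and 1 and 1 without day 28. miR-100-5p was at 176 ± 25.5 CPM in late and 113 ± 26.9 CPM in early libraries (0.65, adjusted p = 0.00949), and lost its call without day 14 (0.55, adjusted p = 0.0643).

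The other lists are given by their counts, to be read beside the 35.0% of all tested miRNAs that were called. In the miR-183 cluster 0 of 4 were called, in miR-101 0 of 4, in miR-210, the miRNA induced by hypoxia, 0 of 2, and in the endothelial miR-126 0 of 2. The miR-183 cluster had 1 higher without day 3 or day 28 and 1 lower without day 7. For miR-101, 2 were lower with library totals or without day 28, and 1 without day 3. The miR-34 miRNAs induced by p53 had 0 higher and 1 lower of 5, with 3 lower with library totals. The smooth muscle list had 1 higher and 0 lower of 4, and 0 called without day 2, 3 or 28. The miR-322 and miR-503 cluster had 1 higher and 0 lower of 9, with 3 higher without day 7 and 0 without day 28. In miR-26 1 was higher of 4. A larger part of 3 lists was called. In miR-148 and miR-152 3 were higher of 6, and 1 without day 14 or day 28. In miR-130 and miR-301 3 were higher and 1 lower of 7, and 1 and 2 with library totals. The miR-23, miR-27 and miR-24 clusters had 3 higher and 2 lower of 8, and 0 higher and 2 lower with library totals. The imprinted Dlk1-Dio3 cluster had 13 tested members, with 0 higher and 1 lower, and 3 lower with library totals. The miRNA lower with TMM, miR-409-3p, was at 2.88 ± 1.05 CPM in late and 6.16 ± 1.74 CPM in early libraries (-0.90, adjusted p = 0.000744). As checks on other tissues, 1 of 14 striated muscle rows and 0 of 2 liver rows passed the filter on low values, and of 7 neural miRNAs tested 1 was lower (2 with library totals, 0 without day 28).

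**Figure D5:**
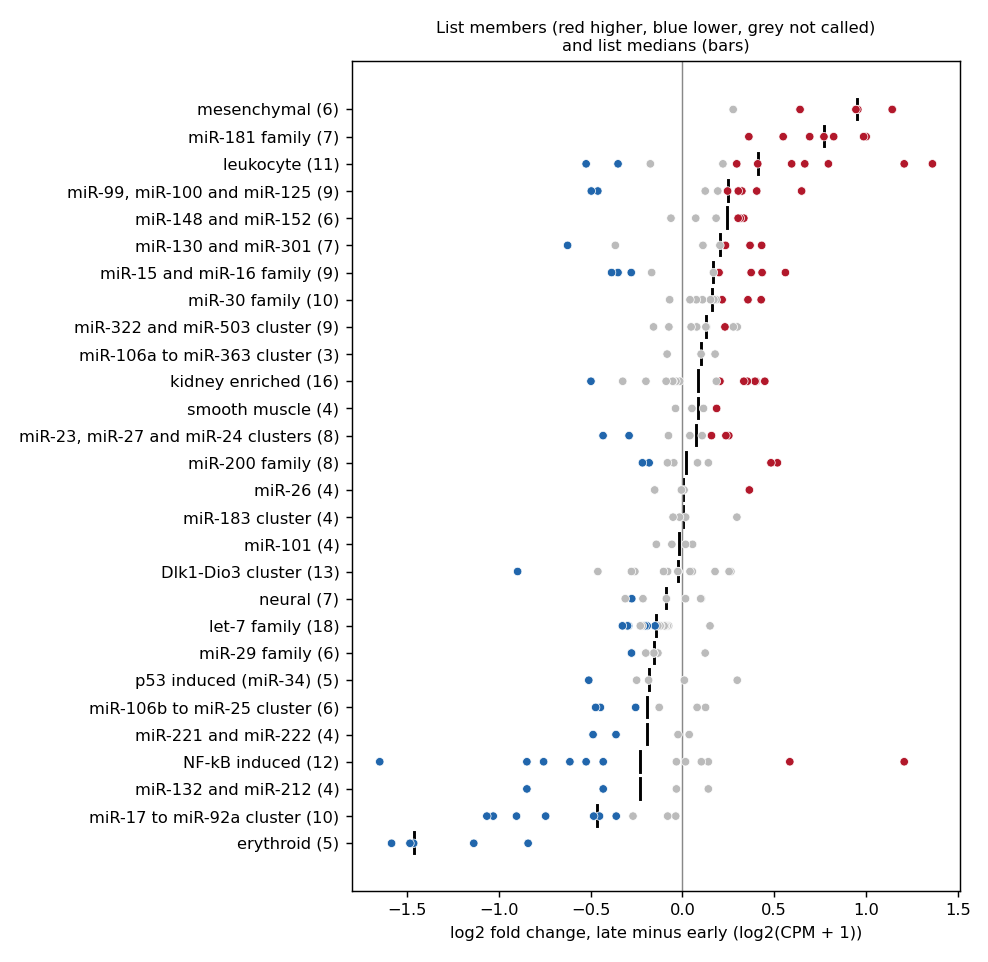
Log2 fold change, late minus early, of the tested members of each list (number in brackets); red points are higher, blue points lower, grey points not called, and the bar is the list's median. Medians run from 0.95 for the mesenchymal list, which holds an identical pair of rows, to -1.46 for the erythroid list.

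Arms of the same hairpin were not always called alike. A difference between arms was not tested, and 1 call in a pair can go with near-equal changes, as in miR-30d (-5p 0.22, -3p 0.18). Of 150 hairpins with both arms tested, both arms were higher in 16 and both lower in 10, 1 arm was called in 54, neither in 67, and the arms were called in opposite directions in 3. These 3 were named for that after their values were seen. With library totals miR-130a-3p (0.12, adjusted p = 0.0994) and miR-28-5p (0.14, adjusted p = 0.16) lost their calls, which leaves 1 of the 3 pairs, miR-874. For miR-130a the -3p arm was higher (0.23, adjusted p = 0.00636; 0.18 and adjusted p = 0.0678 without day 28) and the scarce -5p arm lower (-0.63, adjusted p = 0.00244), at 0.84 ± 0.28 CPM in late and 1.86 ± 0.59 CPM in early libraries. For miR-28 the -5p arm was higher, at 269 ± 18.6 CPM in late and 226 ± 18.5 CPM in early libraries (0.25, adjusted p = 0.00551; adjusted p = 0.0591 without day 1), and the -3p arm lower, at 128.1 ± 21.9 CPM in late and 157 ± 12.6 CPM in early libraries (-0.31, adjusted p = 0.00248; adjusted p = 0.0745 without day 28). For miR-874 the -3p arm was higher (0.44, adjusted p = 0.0024; 0.75 without day 7, 0.23 and adjusted p = 0.168 without day 28) and the -5p arm lower (-0.28, adjusted p = 0.0254). The miR-874-5p call ended without replicate 2 of day 1, 2 of day 2, 1 of day 3, 1 of day 7 or 3 of day 14 (adjusted p 0.0511 to 0.0636) and without day 1, 2 or 7 (adjusted p = 0.088, 0.0849 and 0.583), and was at -0.47 without day 28.

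Members with a shared seed were compared where a mature sequence was in the table, which held for 327 tested miRNAs and 110 of the 151 called. Of 36 seeds shared by tested miRNAs, 13 had at least 2 called members, all in 1 direction for 10 and in both directions for 3. The pair miR-146a-5p and miR-146b-5p (seed GAGAACU) summed to 997 ± 249 CPM in late and 581 ± 278 CPM in early libraries. The pair miR-132-3p and miR-212-3p (AACAGUC) summed to 249.9 ± 116 CPM in late and 314 ± 31.4 CPM in early libraries, and miR-221-3p with miR-222-3p (GCUACAU) to 2061 ± 142.5 CPM in late and 2778 ± 274 CPM in early libraries. The 6 miRNAs with the seed AAAGUGC had 2 lower members, miR-17-5p and miR-20a-5p, yet summed to 1675 ± 358 CPM in late and 1636 ± 149.9 CPM in early libraries. The 5 compared for AGCAGCA had 2 higher and 1 lower and summed to 12440 ± 2096 CPM in late and 10958 ± 1947 CPM in early libraries. miR-497-5p, higher on the late days, was not among these 5 and is not in the sum.

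Of the 10 most abundant miRNAs over the 18 libraries, 5 were higher, 2 lower and 3 not called. Besides miR-10a-5p, miR-10b-5p, miR-192-5p, miR-30a-5p and miR-21-5p above, miR-26a-5p was at 35288 ± 6840 CPM in late and 27066 ± 2666 CPM in early libraries (0.36, adjusted p = 8.87e-05; 0.22 without day 28). miR-143-3p, known from smooth muscle, was at 76338 ± 7353 CPM in late and 67106 ± 6742 CPM in early libraries (0.19, adjusted p = 0.0136), and lost its call without day 2, 3 or 28 (adjusted p = 0.136, 0.0687 and 0.225) and with library totals (0.076, adjusted p = 0.455). miR-27b-3p (0.16, adjusted p = 0.0262) lost its call without replicate 2 of day 1, 3 of day 2, 2 of day 3, 1 of day 14 or 2 of day 28 (adjusted p 0.0518 to 0.0635) and without day 2, 3 or 28 (adjusted p = 0.0539, 0.159 and 0.463). With library totals it was at 0.048 (adjusted p = 0.498). miR-22-3p was at 87200 ± 14084 CPM in late and 96876 ± 8184 CPM in early libraries (-0.16, adjusted p = 0.0424), and lost its call without any of 11 single libraries (adjusted p 0.057 to 0.0987). These were replicate 1 of day 1, 1 and 2 of day 2, all 3 of day 3, 1 and 3 of day 7, 3 of day 14, and 1 and 3 of day 28. Its call also ended without day 1, 2, 7 or 14 (adjusted p = 0.222, 0.0849, 0.293 and 0.2), and it was at -0.29 without day 28. let-7f-5p did not pass the test (-0.08, adjusted p = 0.259), at 21336 ± 1111 CPM in late and 22600 ± 1157 CPM in early libraries.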

How the data were processed

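The values used are CPM, which the authors deposited in 1 table of 1125 mature miRNAs by 21 libraries, each column scaled to the same sum. Per the labels' protocols, total RNA went into TruSeq small RNA libraries. CASAVA 1.8 and the genome build mm9 are named in the submitters' processing notes, while aligner and counter were not given in the sources used here. Whole reads were recovered from the deposited CPM for 100% of values (tolerance 0.05 of a read). edgeR's filterByExpr with a minimum count of 10 removed 694 miRNAs. The test was limma-trend on log2(TMM-scaled CPM + 1), a scale that understates the change of scarce miRNAs, in 1 fit of 21 libraries with a mean per day, and the log2 fold change is late minus early with Benjamini-Hochberg adjustment over all tested miRNAs. Levels are mean ± SD of 9 libraries, and these phase SDs also hold differences between days. With libraries left out, the TMM factors of all 21 libraries were kept. Called miRNAs with the 12 largest rises and 12 largest falls at a mean of at least 10 CPM, the 10 most abundant and members of lists were named. Members and lists were chosen with earlier results of these data known. Rows miR-199a-3p and miR-199b-3p were identical. Software was R 4.3.3, limma 3.58.1, edgeR 4.0.16 and DESeq2 1.42.0. The code was tested on simulated data. Sequences and coordinates are RefSeq's for GRCm38.p6, with host genes from GENCODE (GRCm38), and no coordinates of the authors' build were used. Several called miRNAs, such as miR-486-5p, are named without a sequence.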

Additional observations from a re-analysis of the deposited data

Results flagged for a closer look

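For 76 named miRNAs, the 9 libraries of each phase were looked at as a set, and 7 sets had a highest library whose gap to the next, as a share of the whole range, was above 0.493. Chance marks about 1 set in 20, and each phase pools 3 days. In the late phase, day 14 replicate 3 had 7748 CPM of miR-199a-3p, and the same 7748 CPM in the identical row of miR-199b-3p, where the other late libraries had 3753 to 5375 CPM. Day 7 replicate 1 had 9295 CPM of miR-92a-3p, where the other late libraries had 5557 to 7327 CPM. In the early phase, day 3 replicate 2 had 25.5 CPM of miR-199b-5p, against 14.0 to 19.6 CPM in the other early libraries. The same library had 311 CPM of miR-142-3p, against 87.9 to 184 CPM in the others. Day 1 replicate 3 had 155928 CPM of miR-10b-5p, against 82122 to 117083 CPM in the other early libraries. Day 1 replicate 1 had 115043 CPM of miR-22-3p, against 89110 to 101819 CPM in the others.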

How the results depend on the processing

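The count of called miRNAs kept within 1.5 times of 151 (71 higher, 80 lower) except in a pair of settings. With 1 value per day, 3 late against 3 early, limma called 0 (0 higher, 0 lower; 82 at an unadjusted p under 0.05). Without days 1 and 2 it called 72 (28 higher, 44 lower). Leaving out 1 library gave 137 to 159 called, 64 to 78 higher and 72 to 82 lower. The count differing among the late days ran from 67 (without day 28 replicate 2) to 139, and among the early days from 32 (without day 3 replicate 2; 35 without day 1 replicate 2) to 72. Upper-quartile scaling gave 89 higher and 68 lower, 2 groups of 9 libraries with no day means 112 called, and day 2 left out 109. Several log2 fold changes turned sign. Without days 1 and 2 they were 0.00027 for miR-451, 0.064 for miR-486-5p, 0.067 for miR-3107-5p, 0.10 for miR-144-3p, 0.32 for miR-144-5p, 0.14 for miR-486-3p, 0.021 for miR-192-5p, -0.60 for miR-214-3p, -0.25 for miR-146b-5p and -0.34 for miR-142-3p. Without day 28 they were 0.013 for miR-132-3p and -0.016 for miR-30a-5p. Without day 1 they were 0.054 for miR-192-5p and -0.18 for miR-214-3p, and for miR-192-5p also 0.047 without day 7 and 0.023 without day 14. The cause of these shifts was not tested.

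With the replicate number as a block, limma called 68 miRNAs higher and 80 lower, and of the named miRNAs miR-142-3p lost its call (adjusted p = 0.0592). With day means taken off, same-numbered libraries of different days correlated at 0.018 on average (-0.36 to 0.27 over 45 pairs), others at -0.009. Of 18 libraries, 10 correlated best with their own number. These values cannot decide whether the numbers pair the libraries, since each day mean rests on 3 libraries. miRNAs of a few CPM, such as miR-511-5p and miR-130a-5p, lie near the limit that a count of 0 allows, and changes in them are the least precise.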
